A study of Mus musculus with 6 samples.

Results

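The genes that sense oxygen and answer to its shortage were examined in the retina plus retinal pigment epithelium (RPE) of 5XFAD mice given efavirenz (EFV) or vehicle. The set holds 10 of the 19401 genes in the files: the hypoxia-inducible factor (HIF) alpha subunits Hif1a, Epas1 and Hif3a, their partner Arnt, the prolyl hydroxylases Egln1, Egln2 and Egln3, the asparaginyl hydroxylase Hif1an, the ubiquitin ligase subunit Vhl, and Adm, a HIF target that encodes adrenomedullin. They were found by gene symbol. They were chosen by name and selected on, among other things, the EFV and control values of these same libraries, so the difference between the groups is described for them without a test.

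There were 3 control and 3 EFV libraries, each made from a pool of 5 to 6 mice aged 9 months. The mice of both groups were 5XFAD, which carry mutant human transgenes for amyloid precursor protein and presenilin 1 and model Alzheimer's disease, and no library of mice without the transgenes was analysed here. The study's methods describe hemizygous males on a B6SJL background that lacked the retinal degeneration alleles rd8 of Crb1 and rd1 of Pde6b, with 1 retina per mouse in a pool. EFV, an anti-HIV drug that at low dose activates the brain cholesterol hydroxylase CYP46A1, was in the drinking water from 3 months of age at a labelled dose of 0.08 mg per kg of body weight, the methods state a slightly higher dose, and controls drank vehicle with Tween 80.

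Cells make HIF alpha subunits all the time and, while oxygen is plentiful, destroy them. EGLN enzymes, also called PHDs, use oxygen to hydroxylate prolines of the alpha subunit, VHL binds the hydroxylated form and delivers it to the proteasome, and HIF1AN, also called FIH, blocks recruitment of coactivators by a separate hydroxylation. When oxygen falls, the alpha subunit persists, pairs with ARNT and binds hypoxia response elements, where it raises transcripts for glucose use, blood vessel growth and, as feedback, EGLN1 and EGLN3. In the retina, whose photoreceptors consume much oxygen, this pathway is best known for driving VEGF and new vessels. Most of its control lies in the stability of the alpha protein, which RNA levels do not measure.

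The libraries held 23455201 to 24590307 expected counts each. Markers of rods summed to 26500 to 28800 FPKM (fragments scaled to transcript length and library size) and no marker of rods, RPE, endothelium, pericytes, Müller glia or microglia was at 0 in any library. Lens markers summed to 2420 FPKM in control library 3 and to at most 100.3 FPKM in the other 5 libraries, and this library stood apart from each of the others. Summed RPE markers were lowest in control library 2, at 32.6 FPKM against 54.8 to 71.1 FPKM in the remaining libraries. Ttr made up the largest share of this sum, and Best1, Mitf, Tyr and Slc45a2 were not lowest in that library. The fold changes of some genes are also given without these libraries. In pooled tissue, fewer cells of a type and less RNA per cell cannot be told apart.

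Each of the 10 genes was detected in all 6 libraries, over a 383-fold range of FPKM. Hif1a was the most abundant, at 155 ± 6.93 FPKM (SD, n = 6), and stood at the 98.3rd percentile of the 16726 genes ranked by level. Its mean level was 4.70 times that of the next gene, Egln1, at 33.0 FPKM. Egln1 and Epas1, at 30.5 FPKM, overlapped in their ranges over libraries, although Egln1 was the higher of the pair within each library. Egln2 (20.3 FPKM) and Arnt (16.5 FPKM) came next, followed by Hif1an (12.1 FPKM) and Vhl (10.5 FPKM). The ranges of Hif1an and Vhl overlapped, although Hif1an was the higher within each library. Egln3 (2.55 FPKM), Hif3a (1.16 FPKM) and Adm (0.405 FPKM) were the lowest. Thus 2 of the 9 neighbouring pairs in this order overlapped in their ranges over libraries. The order was the same when any 1 library was left out.

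**Figure D1:**
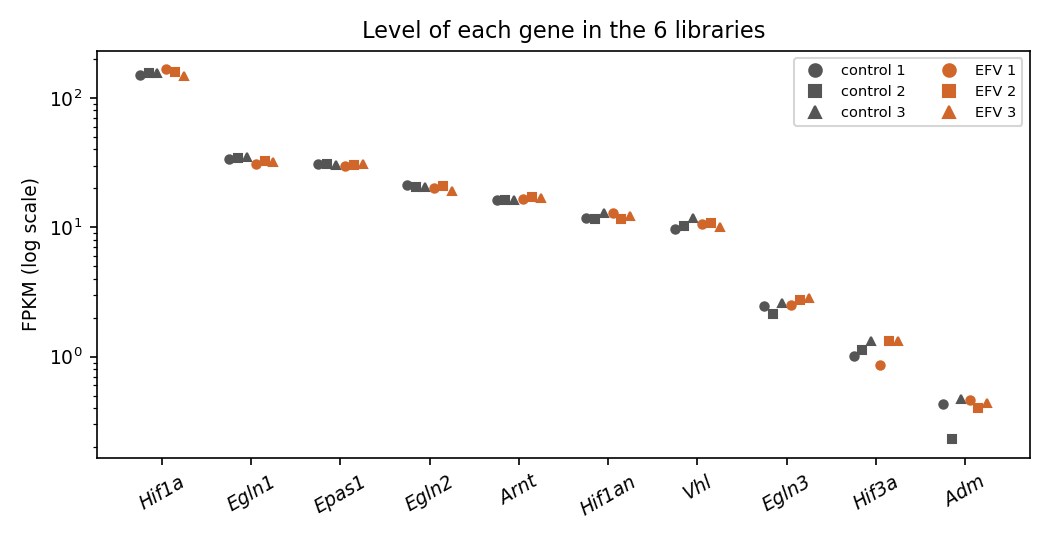
FPKM of the 10 genes in each library on a log axis, ordered by mean level, with control libraries in grey, EFV libraries in orange and a marker shape per library number. Hif1a lay between 146 and 166 FPKM, far above the rest, and Adm lay below 0.5 FPKM in all 6 libraries.

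The mouse promoters of this set were described by sequence alone, and no HIF binding data were used. RefSeq windows (GRCm38.p6) from 250 bases before to 50 bases after the transcription start were held for 9 of the 10 genes. Epas1 had no window, and Egln2 had a second start. A GENCODE transcript of Hif1a starts further upstream, at chr12:73901375, and that start had no window. The windows were searched on both strands for ACGTG and GCGTG, the core letters of the hypoxia response element. At least 1 match was found in 7 of the 9 genes, and ACGTG in 4 of them, Hif1a, Egln1, Egln2 and Egln3. Over all 32544 windows of this length, 44.0% held either core, 19.7% held ACGTG and 32.6% held GCGTG, so the motif is common and a match is only a description of the letters. The stretches around the matches are printed for the most abundant alpha subunit, for the feedback genes Egln1 and Egln3 and for the target Adm, 5′ to 3′ on the gene's strand, with matches on either strand in capitals.
Hif1a promoter, chr12:73907717-73907816, plus strand: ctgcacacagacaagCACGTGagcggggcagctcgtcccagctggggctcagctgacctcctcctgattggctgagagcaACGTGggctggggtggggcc
Egln1 promoter, chr8:124949303-124949395, minus strand: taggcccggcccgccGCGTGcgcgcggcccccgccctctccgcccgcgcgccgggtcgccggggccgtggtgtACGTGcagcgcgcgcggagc
Egln3 promoter, chr12:54204084-54204118, minus strand: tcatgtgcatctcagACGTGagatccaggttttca
Adm promoter, chr7:110627552-110627622, plus strand: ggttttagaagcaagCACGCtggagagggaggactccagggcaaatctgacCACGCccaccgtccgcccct

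The first match of Hif1a is a palindrome that reads ACGTG on both strands and counts as 2 overlapping matches. The Egln1 window held 1 match of each core, and the nearer of them, ACGTG, began 68 bases before the RefSeq start. The GENCODE transcript of Egln1 starts further upstream, at chr8:124949324, so this match lies inside that transcript. Both matches of Adm were GCGTG on the opposite strand. The windows of Vhl and Hif1an held neither core. Egln2 had the most, with 6 matches in the window of its upstream start, and 8.99% of all windows held 3 or more.

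**Figure D2:**
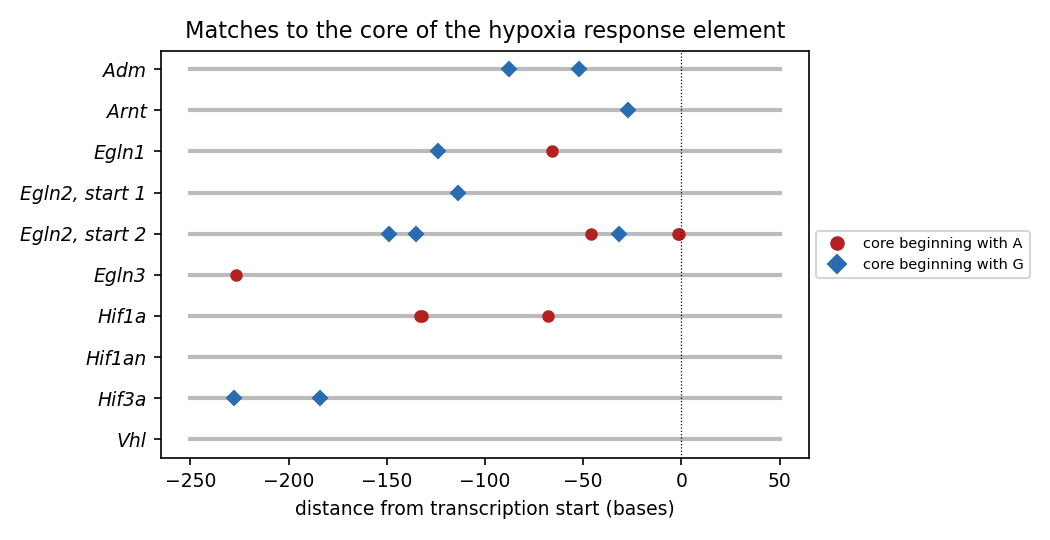
Position of each core match, drawn at its centre, relative to the transcription start (0) in the 10 promoter windows of 9 genes; red circles mark ACGTG and blue diamonds GCGTG, overlapping matches are drawn on top of each other, and start 2 of Egln2 is the upstream start. Matches of Egln1, Hif1a, Adm and Arnt lie within 150 bases before the start, and the lines of Vhl and Hif1an carry no match.

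The comparison of EFV with control asks whether the drug changed this set. In FPKM the EFV and control libraries did not overlap for Egln1 (lower) and Arnt (higher) and overlapped for the other 8 genes. Over all genes tested, 2.68% lay apart as lower and 4.99% as higher. Egln1 is also on the study's own list of genes called in these libraries. Since the genes were chosen with this contrast in view, nothing is read from their counts. Gene positions below are RefSeq spans on GRCm38, and as the strandedness of the counting is not given, reads of the non-coding genes that overlap Hif1a, Egln1 and Adm cannot be told apart from theirs. The fitted log2 fold changes (EFV over control) ran from -0.12 to 0.20, and 6 of 10 lay within 0.05 of 0.

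**Figure D3:**
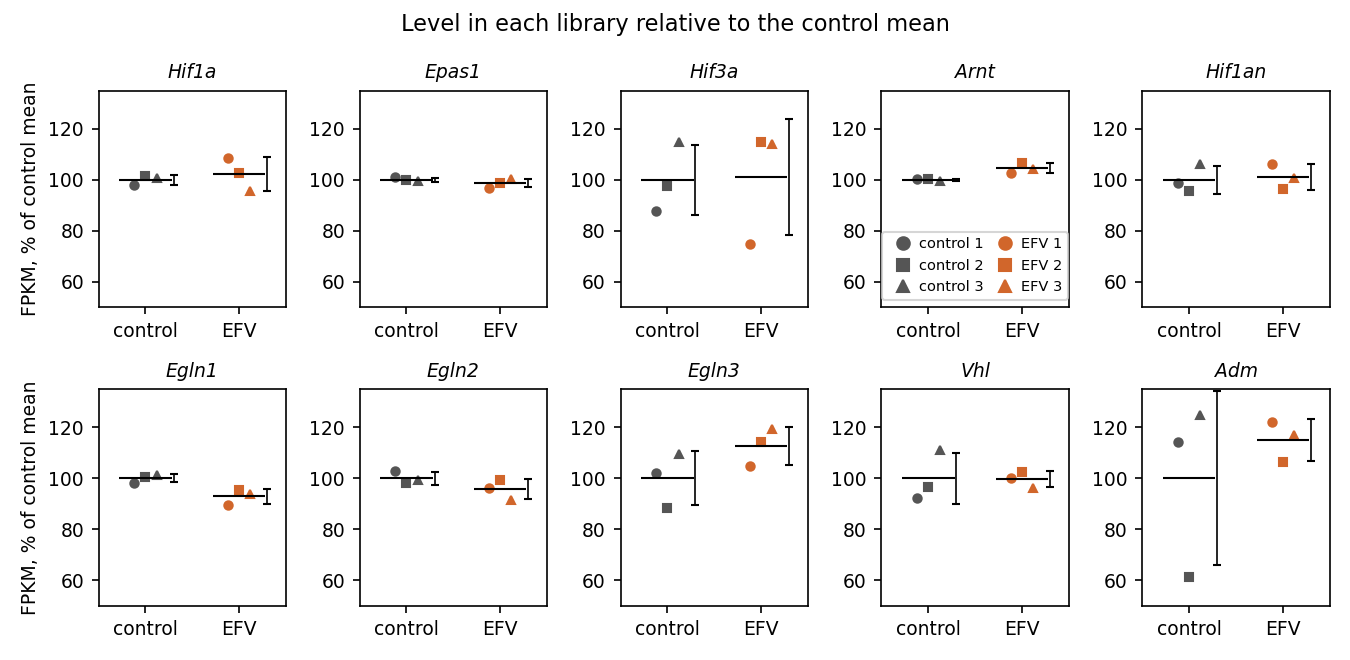
FPKM of each gene in each library as a percentage of its control mean; horizontal lines are group means, vertical bars are ± SD of 3 libraries, and marker shapes give the library number. The EFV points of Egln1 lie below and those of Arnt above all control points, and 1 low control library (0.23 FPKM) widens the bar of Adm.

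Among the alpha subunits, Hif1a (chr12:73901324-73947554), the broadly expressed subunit of HIF-1, was measured at 149.66, 155.24 and 154.40 FPKM in control libraries 1, 2 and 3 and at 166.37, 157.35 and 146.24 FPKM in EFV libraries 1, 2 and 3. The highest and the lowest of the 6 values were both from EFV, and the groups overlapped. The log2 fold change was 0.01 ± 0.05 (SE). Its spread over the 6 libraries, a coefficient of variation of 4.48%, was well above the 0.755% that counting alone would give at this depth, whereas Epas1 varied by 1.41%, against 1.60% from counting.

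Epas1 (chr17:86753864-86833410) encodes HIF-2 alpha, the subunit prominent in endothelium. It was at 31.03, 30.65 and 30.52 FPKM in control and at 29.77, 30.36 and 30.77 FPKM with EFV, the steadiest of the 10 genes, with overlapping groups and a log2 fold change of -0.04 ± 0.04 (SE). Hif3a (chr7:17030993-17062427), which encodes a subunit with forms that can restrain the other two, was at 1.01, 1.12 and 1.32 FPKM in control and at 0.86, 1.32 and 1.31 FPKM with EFV. EFV library 1 was lowest, the groups overlapped and the log2 fold change was 0.00 ± 0.18 (SE). Without EFV library 1 it was 0.18 and without EFV library 2 it was -0.11, so the sign for Hif3a rests on single libraries.

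Hif1a made up 82.8 ± 0.346% (SD, n = 3) of the summed FPKM of the 3 alpha subunits in control and 83.2 ± 1.22% with EFV. Epas1 made up 17.1%, 16.4% and 16.4% in control and 15.1%, 16.1% and 17.3% with EFV. Hif3a stayed under 1% in every library, and the groups overlapped for all 3 shares. The ratio of Hif1a to Epas1 was 4.75 to 5.59 over the 6 libraries.

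Arnt (chr3:95434367-95497240), a beta subunit with which the alpha subunits pair, was at 16.24, 16.21 and 16.10 FPKM in control and at 16.62, 17.24 and 16.85 FPKM with EFV. All 3 EFV values lay above all 3 control values, which differed among themselves by less than 0.2 FPKM. The fitted log2 fold change was small, 0.05 ± 0.04 (SE), and ran from 0.02 to 0.06 over 15 alternative settings. Per library, Epas1 was 1.91, 1.89 and 1.90 times Arnt in control and 1.79, 1.76 and 1.83 times Arnt with EFV, without overlap. The corresponding ratio of Hif1a to Arnt, 9.22 to 9.59 in control, overlapped between the groups.

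Egln1 (PHD2, chr8:124908587-124949254), the main oxygen sensor among the prolyl hydroxylases, was at 33.63, 34.34 and 34.67 FPKM in control and at 30.64, 32.64 and 32.03 FPKM with EFV. Every EFV library was below every control library, and EFV library 1 was the lowest. The means were 34.2 ± 0.531 and 31.8 ± 1.03 FPKM (SD, n = 3), and the fit gave a log2 fold change of -0.12 ± 0.04 (SE), a difference of -8.19%. Over 15 alternatives the value ran from -0.15 to -0.10. It was -0.11 without control library 2, the library low in summed RPE markers, and -0.12 without control library 3, the library with lens RNA. Without EFV library 1 it was -0.10.

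Egln2 (PHD1, chr7:27158658-27166802) was at 21.38, 20.38 and 20.61 FPKM in control and at 19.99, 20.67 and 19.01 FPKM with EFV. The groups overlapped through EFV library 2, and the log2 fold change was -0.07 ± 0.06 (SE). Egln3 (PHD3, chr12:54178981-54203874), the family member most strongly induced by HIF in many cells, was at 2.45, 2.12 and 2.62 FPKM in control and at 2.51, 2.74 and 2.86 FPKM with EFV. Here EFV library 1 lay below control library 3, so the groups overlapped, and the log2 fold change was 0.16 ± 0.12 (SE). Without control library 2, where Egln3 was lowest, it was 0.08.

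The 3 prolyl hydroxylases thus did not lie on the same side of 0. Their summed FPKM was 57.5, 56.8 and 57.9 in control and 53.1, 56.1 and 53.9 with EFV, without overlap. Egln1 held 59.6 ± 0.973% (SD, n = 3) of the sum in control and 58.4 ± 0.901% with EFV, with overlap, and Egln2 held 36.2% and 36.6%. Egln3 held 4.17 ± 0.405% in control and 4.97 ± 0.300% with EFV, and all 3 EFV shares were above all control shares. As the shares sum to 100, these values are not independent. The ratio of Hif1a to Egln1 was 4.45, 4.52 and 4.45 in control and 5.43, 4.82 and 4.57 with EFV, without overlap. Hif1a itself overlapped, so this ratio adds little to the Egln1 values, which were known when the genes were chosen. Ratios of Egln1 to Egln2 (1.53 to 1.68 over all libraries), Egln2 to Egln3 (6.65 to 9.61) and Hif1a to Vhl (13.2 to 15.8) overlapped between the groups. For such sums, shares and ratios no share over all genes was computed.

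**Figure D4:**
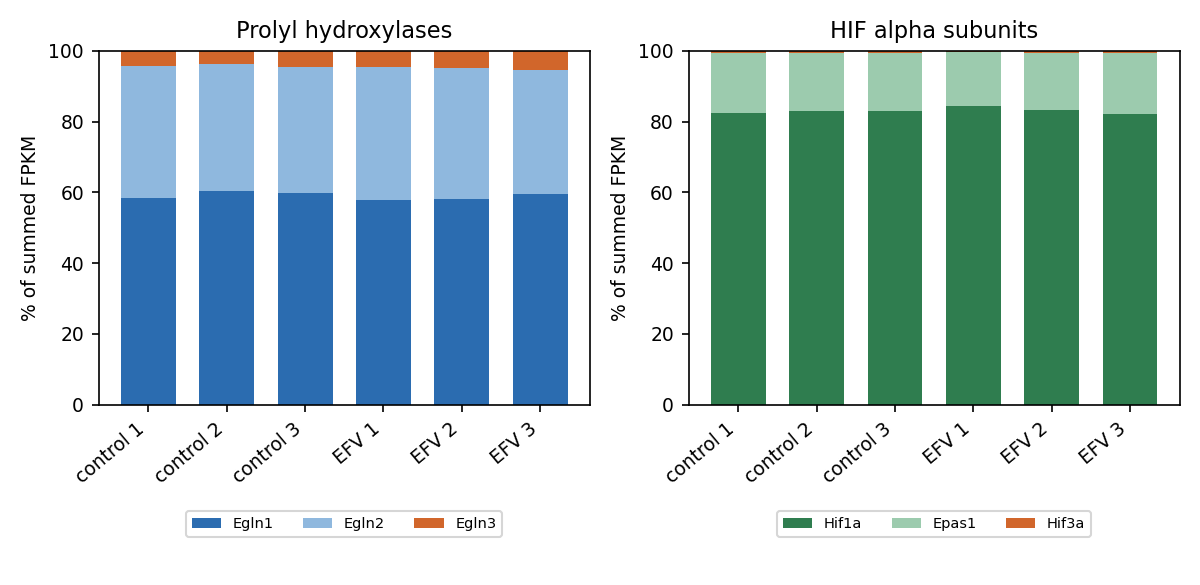
Share of each gene in the summed FPKM of the prolyl hydroxylases (left) and of the HIF alpha subunits (right), 1 stacked bar per library. Egln1 is the largest part of the left bars at 57.7% to 60.4%, Hif1a fills 82.0% to 84.5% of the right bars, and the Egln3 part is 3.73% to 4.53% in control and 4.72% to 5.31% with EFV.

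Hif1an (chr19:44562854-44576274) was at 11.89, 11.50 and 12.78 FPKM in control and at 12.82, 11.62 and 12.14 FPKM with EFV, with overlapping groups and a log2 fold change of -0.00 ± 0.05 (SE). Vhl (chr6:113623994-113631634) was at 9.71, 10.15 and 11.70 FPKM in control and at 10.54, 10.79 and 10.12 FPKM with EFV. Control library 3 was the highest and control library 1 the lowest, so the EFV values lay inside the control range. The log2 fold change of Vhl was -0.02 ± 0.08 (SE), and it was 0.06 without control library 3.

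Adm (chr7:110627657-110629820), the vasodilator and vessel-stabilising peptide that HIF induces in many cell types, was near the lower end of what these libraries can measure. It was at 0.43, 0.23 and 0.47 FPKM in control and at 0.46, 0.40 and 0.44 FPKM with EFV, which correspond to 14, 7 and 15 and to 15, 13 and 14 expected counts. Only control library 2 stood low, and the groups overlapped. The log2 fold change was 0.20 ± 0.35 (SE) and turned to -0.05 without control library 2. A difference of this size was not detectable at this depth, since counting alone gives Adm a coefficient of variation of 27.7%, above the 22.0% observed.

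Of the 7 genes of the adrenomedullin system besides Adm, 6 were tested. Other genes than the 10 were compared by edgeR at an adjusted p of 0.05 and at both limits that the study used for calls (an unadjusted p of 0.05 and a fold change of 7% as a ratio in either direction), here applied to edgeR's p. Over all 15537 genes tested, 0% (0 genes) passed the adjusted p, with 472 genes at an unadjusted p of 0.05 or less, and 1.54% passed both limits as lower, 1.47% as higher and 3.01% in either direction. None of the 6 adrenomedullin genes passed both limits, and 1 passed as higher without EFV library 1. Ramp3 (16.5 ± 0.485 FPKM in control and 16.5 ± 1.06 FPKM with EFV, SD, n = 3) was far above Ramp2 (4.65, 4.45 and 4.74 FPKM in control and 3.91, 4.26 and 5.91 FPKM with EFV) and above Ramp1 (0.767 ± 0.122 and 0.863 ± 0.0153 FPKM). These encode the proteins that turn the receptor encoded by Calcrl (0.750 ± 0.0889 and 0.830 ± 0.130 FPKM) into a receptor for adrenomedullin or a related peptide. Pam, which amidates the peptide, was at 21.8 ± 1.34 and 21.6 ± 0.927 FPKM. Ackr3, a scavenging receptor, was at 1.67 ± 0.363 and 2.14 ± 0.494 FPKM with overlapping groups. The median log2 fold change of the 6 genes was 0.06, beside 0.001 over all genes tested, and the median was 0.00 with no filter on low counts.

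The RNA of genes that HIF is known to induce was described next. Of 46 tested genes in a list of 49 targets, 4 passed both limits as lower and 1 as higher with EFV, 10.9% of the list beside 3.01% of all genes tested, and none passed an adjusted p of 0.05 by edgeR or DESeq2 (5 had an edgeR p of 0.05 or less, 7 a DESeq2 p). All 5 genes are on the study's list of genes called in these libraries and are not independent evidence of a direction. The targets were listed with that study list and earlier results of these data known. Their share past the limits is therefore a description, from which no conclusion is drawn. The list had a median log2 fold change of -0.06, beside 0.001 over all genes tested, with 34 genes below and 12 above 0. The glycolytic targets gave 18 of those below and 2 of those above, and the other targets 16 and 10.

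The 4 lower genes were all among the 20 glycolytic targets, whose median log2 fold change was -0.09. Pfkfb3, which makes the activator of phosphofructokinase, was at 8.83, 9.25 and 9.01 FPKM in control and at 7.68, 8.08 and 8.43 FPKM with EFV, without overlap (log2 fold change -0.19 ± 0.05 SE, edgeR adjusted p = 0.999). Pfkl (-0.16 ± 0.06), Aldoa (-0.12 ± 0.05) and Eno1 (-0.15 ± 0.06), enzymes of the glycolytic chain, overlapped between the groups in FPKM. Eno1 has a processed copy, Eno1b, to which the files assign counts of its own, and how reads were divided between them was not tested, so Eno1 is uncertain. Pkm, the last enzyme of the chain, was at 1400 ± 35.4 and 1320 ± 73.3 FPKM and did not pass, and Gapdh, which has many processed copies in the genome, was at 1430 ± 262 and 1490 ± 311 FPKM. The count of 4 lower glycolytic targets was 2 with upper-quartile or total-count scaling or with limma on log2 FPKM. It was 3 with a filter of 50 counts, 5 with DESeq2 or with no filter, and 6 with the replicate block. The count was 1 to 6 when single libraries were left out (2 without control library 1, 1 without control library 2, 6 without control library 3 and 1 without EFV library 1). Over all 46 targets the lower count was 2, 2, 7 and 1 without these libraries in the same order.

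Of the 26 other targets tested, Car12, a membrane carbonic anhydrase that RPE and other epithelia express, passed both limits as higher. It was at 0.73, 0.47 and 0.86 FPKM in control and at 0.86, 1.02 and 1.42 FPKM with EFV, with a log2 fold change of 0.66 ± 0.26 (SE) and an edgeR adjusted p of 0.999. Car12 was lowest in control library 2, where the sum of RPE markers, though not each marker, was lowest too. It no longer passed when this library, control library 1 or either of EFV libraries 2 and 3 was left out. Of the 11 RPE markers tested, 10 had a log2 fold change above 0, with a median of 0.40 beside 0.001 over all genes tested. Both limits were passed as higher by 2 of them, Rpe65 (0.58 ± 0.25 SE, FPKM groups apart) and Lrat (0.65 ± 0.27 SE, overlapping). Rpe65 and Lrat were lowest in control library 2 (2.35 and 0.43 FPKM), and their fold changes without it are not given here. The summed RPE markers overlapped between the groups (32.6 to 62.6 FPKM in control and 54.8 to 71.1 FPKM with EFV), and the part of RPE content in the value of Car12 was not tested. Vegfa, the vessel growth factor, was at 59.8 ± 2.40 and 56.7 ± 5.23 FPKM, Bnip3, a mitophagy receptor, at 92.9 ± 5.99 and 88.1 ± 2.15 FPKM, and Ndrg1, a stress-response gene, at 97.41, 93.70 and 100.54 FPKM in control and 103.91, 97.72 and 98.37 FPKM with EFV, all with overlapping groups. Loxl2, a collagen cross-linking enzyme, was at 1.44 ± 0.139 and 1.26 ± 0.103 FPKM. Summed pericyte and smooth muscle markers were 23.4 to 25.8 FPKM in control and 22.3 to 23.1 FPKM with EFV, without overlap. Rgs5 made up the largest share of this sum, and of the 9 markers 6 had a log2 fold change below 0 and 3 above 0, among them Tagln, whose FPKM groups lay apart as higher with EFV. Endothelial markers summed to 59.5 to 66.6 FPKM in control and 59.1 to 63.8 FPKM with EFV. The part of vessel content in the HIF values was not tested.

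None of the 15 cofactors and degradation partners of HIF passed both limits with all libraries, 1 passed as higher without EFV library 2 and 1 as lower without EFV library 3, and their median log2 fold change was -0.01. The chaperones Hsp90aa1 (600 ± 27.6 FPKM in control and 612 ± 16.2 FPKM with EFV) and Hsp90ab1 (219 ± 2.32 and 214 ± 2.12 FPKM), which hold unbound alpha subunits, were the most abundant. Elob (185 ± 6.78 and 180 ± 16.8 FPKM), an elongin of the ligase complex that VHL belongs to, came next. Os9, whose product binds both HIF1A and EGLN proteins, was at 34.8 ± 0.777 and 33.3 ± 0.410 FPKM, and Siah2, a ligase for EGLN proteins, at 6.34 ± 0.0346 and 5.94 ± 0.178 FPKM. The FPKM groups of Os9, Siah2 and Hsp90ab1 were apart as lower, 3 of 15 genes, beside 2.68% of all genes tested.

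**Figure D5:**
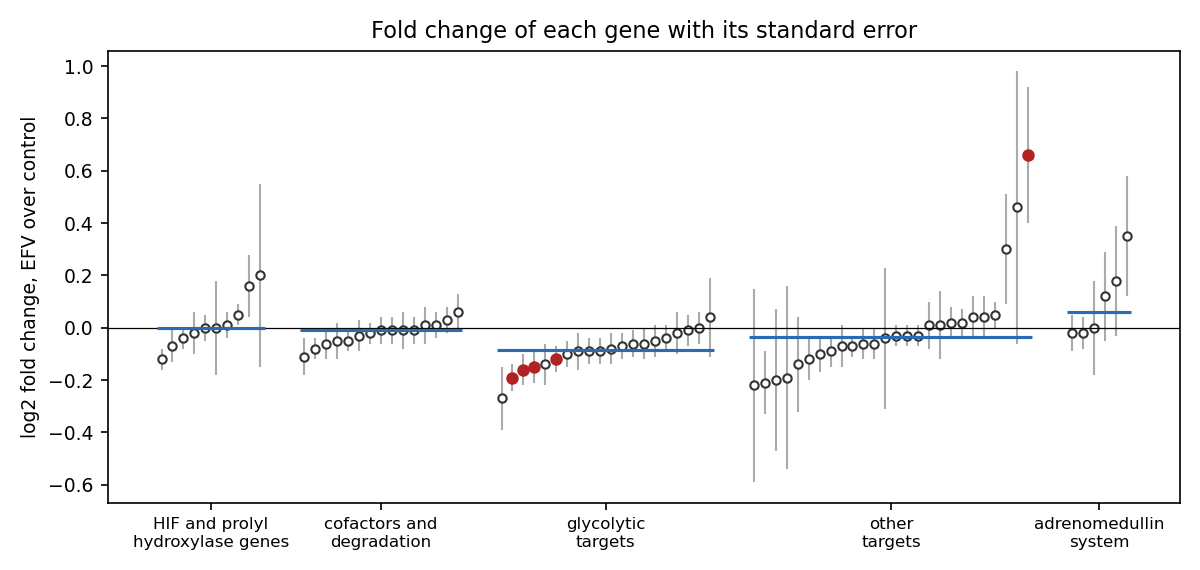
Log2 fold change (EFV over control) of each tested gene with its SE, sorted within 5 lists; in the last 4 lists filled red points passed both limits and open points did not, the genes of the first list are all drawn open, and blue lines are list medians. Egln1 is the lowest point of the first list, the 4 red points of the glycolytic targets lie below 0, and Car12 at 0.66 is the highest point of all.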

How the data were processed

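The authors filtered the reads, aligned them to mm10 with Bowtie2 v2.2.5 and estimated an expected count and FPKM per gene with RSEM v1.2.12; the labels also list HISAT2 v2.0.4. The deposited expected counts are not normalized, and the deposited FPKM are divided by transcript length and library total and rounded to 2 decimals. Strandedness, annotation release and filter settings are not given in the sources used here. Genes absent from a library's file were taken as 0 there. The library kit selected polyadenylated RNA per the labels.

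Expected counts were rounded. Genes that reached 10 counts in 3 or more libraries were compared with edgeR 4.0.16 (R 4.3.3; quasi-likelihood, TMM, group only, two-sided, Benjamini-Hochberg over 15537 genes). The p-values set the difference between the groups against the spread between pools. Levels between genes were compared in FPKM. The members and gene lists were chosen with earlier results of these data known, and the study's list of called genes had been read. The text names all 10 members, the 3 most abundant tested genes and up to 3 with the smallest p of each pathway list, all tested adrenomedullin genes, marker sums, and the nearest genes of the 3 most variable members. The hypoxia terms of the files were chosen after the files were seen. Alternatives were other scalings, filters, DESeq2 1.42.0, limma 3.58.1 on log2(FPKM + 0.1) and log2(FPKM + 1), a replicate block and each library left out. The edgeR step was tested on simulated data with changes larger than those of the 10 members, so that test does not cover differences of their size. Same-numbered control and EFV libraries had correlations of 0.125, 0.0832 and 0.0992 in their deviations from the group means. Libraries of unlike number had correlations of -0.101 to -0.00629. As the labels name no pairs, the main fit took none, and pairing by number was fitted only as the replicate block. A planned count of genes of a HIF-1 pathway annotation and a protein comparison were not made.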

Additional observations from a re-analysis of the deposited data

How the results depend on the processing

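With an adjusted p of 0.05, DESeq2 called 11 genes against 0 by edgeR, and leaving out a library gave 0 to 1 (1 without EFV library 1). Past both limits, 239 genes were lower and 228 higher. These counts were 145 and 124 with DESeq2, 159 lower with total counts, and 206 to 307 lower and 182 to 269 higher with a library left out. Of the HIF targets, 4 were lower and 1 higher. There were 2 lower with upper-quartile scaling, with total counts and with limma on FPKM at either pseudocount. The lower count was 3 with a filter of 50 counts and 5 with DESeq2 or with no filter. With a library left out, 1 to 7 were lower and 0 to 1 higher. The median log2 fold change of the 10 genes ran from -0.03 to 0.04 with a library left out. Total-count scaling moved the median of all genes to 0.017. The cause of these shifts was not tested. With the replicate block, 6 HIF targets were lower and 1 higher, and Egln1 kept its log2 fold change of -0.12. Every library correlated best with the library of its own number in the other group, a hint from the data and not from the design. Counting alone gives a coefficient of variation of 27.7% for Adm, 7.83% for Egln3 and 7.20% for Hif3a, which limits what can be seen for these genes.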

Other observations

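The files give a mean transcript length per gene and library, weighted by RSEM's estimate of each isoform's share. For Hif1a it was 4732.90, 4733.45 and 4734.03 bases in control libraries 1, 2 and 3 and 4721.70, 4725.68 and 4722.22 bases in EFV libraries 1, 2 and 3, without overlap and lower with EFV by 10.3 bases of the mean (a difference of -10.3). Of the 7929 genes whose length varied between libraries, 4.75% lay apart as shorter and 4.45% as longer with EFV, so Hif1a is 1 of many such genes. The lengths of Hif3a, Arnt and Egln2 overlapped between the groups, and the other 6 genes have a single transcript length in the files. GENCODE lists a Hif1a transcript of 4724 bases that starts at chr12:73907904 and 1 of 4385 bases that starts upstream at chr12:73901375 (GRCm38). The control lengths exceed both, so a mixture of these GENCODE transcripts cannot give them. The files count 3 Hif1a transcripts, whose single lengths are not given here. The length per gene does not show which isoforms differed, and no test was made.

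The pattern over the 6 libraries was compared between genes as the mean absolute difference of centred log2 CPM, among 13173 genes with a mean of at least 1 FPKM. Nearest to Egln3 were Wnk4 (0.0270), Guca1b (0.0280) and Lcn2 (0.0309). Nearest to Hif3a were Il17rc (0.0623), Col9a3 (0.0721) and Cacna1s (0.0794). Nearest to Adm were Tssk6 (0.0652), the unnamed transcript BGI_novel_G001028 (0.0730) and Gm21992 (0.0794), at Adm counts of 7 to 15. These are descriptions over 6 libraries, with no test.

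Apart from the 10 genes, 198 of the 234 genes that the files annotate to the response to hypoxia were tested. Of these, 3 passed both limits as lower and 1 as higher with EFV, 2.02% of the list beside 3.01% of all genes tested, and the median log2 fold change was -0.00. The lower genes included the crystallins Cryaa (16.44, 35.34 and 1341.41 FPKM in control and 43.47, 10.71 and 73.67 FPKM with EFV) and Cryab (43.44, 48.78 and 564.81 FPKM in control and 51.22, 41.00 and 69.18 FPKM with EFV), both high in control library 3, where lens markers were high. Without this library neither passed, with log2 fold changes of 0.70 ± 0.63 and 0.18 ± 0.17 (SE), although 6 genes of the list were then lower. With single libraries left out in turn, an alternative chosen after seeing the data, 1 to 6 genes passed as lower (6 without control library 1, 6 without EFV library 3 and 1 without EFV library 1) and 0 to 2 as higher. The remaining lower gene, Slc29a1, a nucleoside transporter, was at 19.27, 24.26 and 16.01 FPKM in control and at 12.77, 16.39 and 15.87 FPKM with EFV, with overlapping groups. The higher gene, named after its values were seen, was Icam1, an adhesion molecule for leukocytes, at 0.30, 0.24 and 0.44 FPKM in control and at 0.47, 0.66 and 0.47 FPKM with EFV, without overlap (log2 fold change 0.70 ± 0.31 SE, edgeR adjusted p = 0.999). It did not pass without control library 1 or EFV library 1, where no gene of the list passed as higher.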
